A study of Mus musculus with 12 samples.

Results

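The genes of cholesterol and fatty acid synthesis were followed in 3D cultures of mouse mammary epithelial cells (MECs). The set held 35 named genes, comprising 18 sterol enzymes from acetyl-CoA to cholesterol, 13 genes that supply, build, desaturate or elongate fatty acids, and 4 genes of sterol regulation and transport. Of these, 32 had a probe that carries their symbol, and 31 were tested among 10724 genes, a gene being tested when its probe exceeded the negative control beads (detection p under 0.05) on 3 or more of the 12 arrays. No probe was named for Acat2, Hmgcs1 and Fdft1 in the annotation used. At the edge of the detection rule stood Fasn, detected on 4 of 12 arrays and tested, and Acaca, whose 1 probe was detected on 0 arrays and was not tested. The other 30 tested members were detected on 12 of 12 arrays. The tested members were 5 of 7 genes of the mevalonate step, 10 of 11 from squalene to cholesterol, 4 of 4 of regulation and transport, 5 of 6 that supply acetyl-CoA and NADPH or make palmitate, and 7 of 7 of desaturation and elongation.

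RNA was measured on Illumina Mouse WG-6 v2 arrays, 3 for each of 4 groups, formed by the genotypes, wild type and Blimp-1 cKO, and the days, D3 and D4. Wild type MECs came from C57BL/6 females, a strain used at 8 to 10 weeks of age, and cKO MECs from Prdm1 BEH/CA;ROSA26:CreERT2 females of unstated age, all donors being pregnant. Both genotypes were treated with 100 nM 4-hydroxytamoxifen for 24 h at the start of culture, which switches on the Cre of the cKO cells and thereby deletes Prdm1, the gene of the transcriptional repressor Blimp-1. Cells grew on Matrigel in medium with serum, insulin, hydrocortisone and EGF and were fed every 48 h, and the sources used here do not give the time between feeding and harvest. Cre is not mentioned for the wild type donors, so donor line, Cre activity and loss of Blimp-1 cannot be told apart. Whether the 3 arrays of a group came from separate animals is not stated, and p-values then reflect only how far these samples spread. The arrays read RNA of whole cultures, in which fewer cells of a type and less RNA per cell cannot be told apart.

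Cholesterol is built from acetyl-CoA through mevalonate, farnesyl diphosphate, squalene and lanosterol. When sterols in the endoplasmic reticulum run low, the membrane-bound factors SREBP-1 and SREBP-2, encoded by Srebf1 and Srebf2, are carried to the Golgi and cleaved, and they then switch on the genes of the pathway. The Insig proteins hold them back when sterols are plentiful. SREBP-2 mainly drives sterol enzymes, while SREBP-1c, raised by insulin and by oxysterol receptors of the LXR family, mainly drives fatty acid genes. SREBPs bind promoters weakly alone and are known to act together with NF-Y, which recognises the letters CCAAT. In the mammary gland fatty acid synthesis rises towards lactation, when the alveolar cells make milk fat.

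Promoters were available for 25 of the 31 tested members in the RefSeq table of GRCm38.p6, as windows from 250 bases before to 50 bases after each annotated start. The letters CCAAT, searched on both strands, stood in a window of 23 of these 25 members (92%), as against 37.4% of all 32851 windows and 43.1% of the 8669 array-tested genes with a window. They stood in 13 of 13 sterol enzymes, 3 of 3 regulation genes and 7 of 9 fatty acid genes, with Elovl6 and Fads2 as the exceptions. GGGCGG, the Sp1 box, stood in 20 of 25 members (80%) and in 35.7% of all windows and 68.2% of array-tested genes. CACGTG, a palindromic E-box, stood in 5 of 25 (20%), against 7.15% of windows and 11.8% of array-tested genes. The letters TCACNCCAC, one form of the SREBP element, were in 0 of the 25 and in 1.24% of all windows. The 4 motifs were searched separately, and a match describes letters only, not binding.

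The 6 promoters shown belong to members that changed from D3 to D4 in wild type cultures and that have a single annotated start. Each gives the 250 bases before the start, 5′ to 3′ on the strand of the gene, with CCAAT or its reverse complement ATTGG in capitals. The first 4 belong to genes that fell, and Acss2 and Thrsp to genes that rose.
Mvk: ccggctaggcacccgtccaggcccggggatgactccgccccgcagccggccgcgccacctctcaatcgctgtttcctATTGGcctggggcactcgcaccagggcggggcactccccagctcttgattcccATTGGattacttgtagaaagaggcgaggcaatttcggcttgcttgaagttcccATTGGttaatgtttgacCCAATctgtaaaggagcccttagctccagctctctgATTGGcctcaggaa
Cyp51: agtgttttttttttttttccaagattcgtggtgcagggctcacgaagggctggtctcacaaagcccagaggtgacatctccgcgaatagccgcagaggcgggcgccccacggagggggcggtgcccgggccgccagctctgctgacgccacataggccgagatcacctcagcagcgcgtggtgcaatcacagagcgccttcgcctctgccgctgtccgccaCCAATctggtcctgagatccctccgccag
Hsd17b7: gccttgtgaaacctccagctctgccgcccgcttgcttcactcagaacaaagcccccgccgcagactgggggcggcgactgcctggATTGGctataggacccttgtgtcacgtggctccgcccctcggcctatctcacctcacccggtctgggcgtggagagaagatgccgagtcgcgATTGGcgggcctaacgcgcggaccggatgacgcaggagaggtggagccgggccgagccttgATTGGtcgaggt
Insig1: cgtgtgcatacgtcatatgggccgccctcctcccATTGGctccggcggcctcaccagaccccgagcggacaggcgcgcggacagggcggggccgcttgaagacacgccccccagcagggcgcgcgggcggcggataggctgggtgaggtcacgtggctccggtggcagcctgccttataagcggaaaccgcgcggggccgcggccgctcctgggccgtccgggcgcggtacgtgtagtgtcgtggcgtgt
Acss2: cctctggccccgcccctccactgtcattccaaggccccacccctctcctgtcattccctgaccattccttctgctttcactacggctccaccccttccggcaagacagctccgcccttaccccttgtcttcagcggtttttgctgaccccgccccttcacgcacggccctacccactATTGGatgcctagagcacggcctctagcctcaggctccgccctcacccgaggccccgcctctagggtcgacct
Thrsp: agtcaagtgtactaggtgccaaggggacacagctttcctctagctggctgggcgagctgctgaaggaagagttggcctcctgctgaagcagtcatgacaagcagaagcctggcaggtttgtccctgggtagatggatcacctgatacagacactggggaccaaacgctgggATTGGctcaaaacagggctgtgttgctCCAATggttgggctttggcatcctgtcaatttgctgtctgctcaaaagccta
The Mvk window lies at chr5:114444019-114444268 on the plus strand of GRCm38.p6 and holds 5 boxes, centred 12 to 171 bases before the start. Cyp51 (chr5:4104698-4104947, minus strand) holds 1 box, 27 bases before its start, and Hsd17b7 (chr1:169969206-169969455, minus strand) holds 3 boxes, 10 to 163 bases before it. Insig1 (chr5:28071162-28071411, plus strand) has 1 box at 214 bases and Acss2 (chr2:155517793-155518042, plus strand) has 1 at 71 bases. Thrsp (chr7:97417551-97417800, minus strand) has 2 boxes, at 50 and 77 bases. Genes that fell and genes that rose both carried the box, but so did 23 of the 25 members with a window. These 6 promoters therefore cannot relate the box to the direction of change.

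The median level of the sterol enzymes was lower on every D4 array than on every D3 array in both genotypes. Of the 15 enzymes, 4 were called lower and 1 (Sc5d) higher in wild type, beside 4.89% and 7.09% of all genes. The cKO had 0 of 15 called, where 1.61% of all genes were called lower and 2.53% higher. The difference between the genotypes was tested as an interaction, which 0 of 31 members and 0 of 10724 genes passed. Each array was given a level for each branch, the median over its genes of the log2 signal minus the mean of that gene over 12 arrays. The sterol level was 0.41, 0.12 and 0.13 on the D3 wild type arrays and -0.22, -0.24 and -0.25 at D4. In the cKO it was 0.03, 0.18 and 0.50 at D3 and -0.13, -0.15 and -0.17 at D4. The fatty acid level was 0.06, -0.06 and -0.09 in D3 wild type and 0.12, 0.11 and 0.15 in D4 wild type, where all D4 arrays lay above all D3 arrays. In the cKO it was -0.28, -0.11 and 0.12 at D3 and -0.03, 0.00 and 0.07 at D4, and the days overlapped. The pooled SD within groups was 0.15 for the sterol and 0.11 for the fatty acid level. The summed signal of endothelial markers (5 of 6 genes tested, log2) also lay lower on all D4 arrays of each genotype, at 10.97 to 11.12 in D3 and 10.17 to 10.94 in D4 wild type, and 11.06 to 11.18 and 10.53 to 10.91 in the cKO. Of these markers Emcn fell in wild type (-0.73, adjusted p = 0.0317 by limma) and had -0.52 in the cKO (adjusted p = 0.162), and the part of such cells in the sterol change was not tested.

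**Figure D1:**
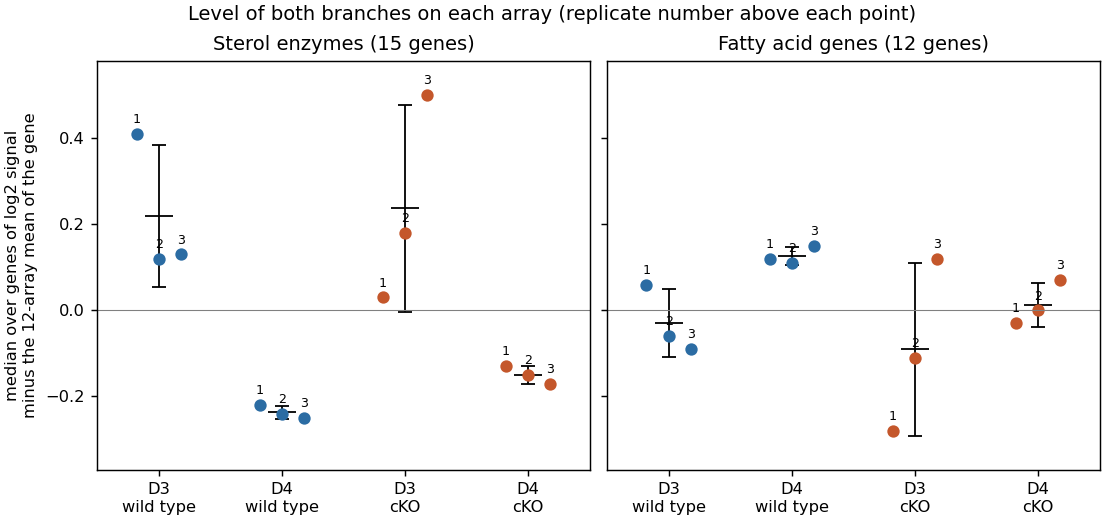
Level of the sterol enzymes (left, 15 genes) and fatty acid genes (right, 12 genes) on each array, as the median over genes of the log2 signal minus the 12-array mean of the gene. Points are arrays with their replicate number, bars are group means and lines 1 SD (n = 3), and the sterol points of D4 lie between -0.25 and -0.13, below those of D3, which lie between 0.03 and 0.50.

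D3 cKO replicate 3 carried the highest signal of its group for 15 of 15 sterol enzymes and for 7 of 12 fatty acid genes, and D3 wild type replicate 1 for 11 of 15 sterol enzymes. The sterol change from D3 to D4 had a median of -0.37 in the cKO with all arrays and -0.26 without D3 cKO replicate 3, and 14 of 15 enzymes then lay below 0. In wild type the median was -0.43 with all arrays and -0.30 without D3 wild type replicate 1, with 14 of 15 below 0 in both cases.

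In wild type cultures, 9 of the 31 tested members passed between D3 and D4, 5 of them lower and 4 higher. Calls required a fold of 1.5 or more and an adjusted p no higher than 0.05, by limma with Benjamini-Hochberg adjustment over all tested probes. Of all 10724 genes, 12% were called in this comparison, 4.89% lower and 7.09% higher. The 5 that fell were Mvk, Cyp51, Hsd17b7, Dhcr7 and Insig1, and the 4 that rose were Sc5d, Srebf1, Acss2 and Thrsp. Over the sterol branch the count was 4 lower and 1 higher of 15, and 12 of 15 had an unadjusted p under 0.05 in the lower direction, as had 17.2% of all genes. The median log2 fold change was -0.43 in the sterol branch and 0.12 in the fatty acid branch, beside -0.02 over all genes. Without D3 wild type replicate 1 the fatty acid median was 0.21. Of the sterol enzymes 14 of 15 (93.3%) lay below 0, as did 52.2% of all genes, and 12 of 15 had all D4 arrays below all D3 arrays, as had 21.4% of all genes. All D4 arrays lay above all D3 arrays for 6 of the 31 members, 4 of them in the fatty acid branch, and for 20.2% of all genes.

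Among the mevalonate genes, 1 of 5 was called lower, beside 4.89% of all genes. All 5 lay below 0, as did 52.2% of all genes, with a median of -0.59. Mvk, mevalonate kinase, read 8.43, 8.35 and 8.69 at D3 and 7.55, 7.74 and 7.81 at D4 on the log2 scale. Its groups did not overlap, and its log2 fold change was -0.79 (standard error 0.18, adjusted p = 0.0126 by limma). The call was lost without D3 wild type replicate 3 (adjusted p = 0.0554), and without background correction, where the log2 fold change was -0.48.

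Mvd, which decarboxylates mevalonate diphosphate to isopentenyl diphosphate, read 10.82, 10.23 and 10.35 at D3 and 10.12, 9.79 and 9.72 at D4, short of the threshold (-0.59, adjusted p = 0.0598 by limma). It passed with the stricter filter on dim probes (adjusted p = 0.0442), with the trend and robust options (adjusted p = 0.0237) and with the replicate block within genotype (adjusted p = 0.0183). Idi1, the isopentenyl diphosphate isomerase, read 8.24, 8.70 and 8.74 and then 7.96, 7.77 and 8.17, also short of it (-0.59, adjusted p = 0.109). Fdps, farnesyl diphosphate synthase, read 14.35, 14.32 and 14.22 and then 14, 14.16 and 13.76 (-0.32, adjusted p = 0.0744). In each of these 3 genes the D4 arrays lay below the D3 arrays. Pmvk, phosphomevalonate kinase, read 10.17, 9.78 and 9.88 and then 9.29, 9.82 and 9.67, overlapping between the days (-0.35, adjusted p = 0.278).

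From squalene to cholesterol, 3 of 10 fell and 1 rose, beside 4.89% and 7.09% of all genes, with a median of -0.43. Cyp51, the lanosterol demethylase, read 12.90, 12.58 and 12.49 at D3 and 11.69, 11.92 and 11.74 at D4. Hsd17b7, a sterol ketone reductase of the same demethylation sequence, read 12.58, 12.46 and 12.27 and then 11.43, 11.67 and 11.51. Dhcr7, which carries out the last reduction to cholesterol, read 10.54, 10.31 and 10.36 and then 9.21, 9.63 and 9.22. In all 3 genes every D4 array lay below every D3 array. The log2 fold changes were -0.87 for Cyp51 (standard error 0.13, adjusted p = 0.00155), -0.90 for Hsd17b7 (standard error 0.13, adjusted p = 0.00128) and -1.05 for Dhcr7 (standard error 0.14, adjusted p = 0.0011), all by limma. These 3 calls held in every alternative that was run, the left-out arrays included.

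Sc5d, the sterol desaturase that acts just before Dhcr7, went the other way. It read 6.55, 6.61 and 7.03 at D3 and 7.56, 7.28 and 7.27 at D4, with no overlap (log2 fold change 0.64, standard error 0.19, adjusted p = 0.0345 by limma). This call was lost without any 1 of D3 wild type replicates 1 and 2 and D4 wild type replicates 1, 2 and 3, at adjusted p from 0.0584 to 0.116, and it was lost without background correction (0.27, adjusted p = 0.0652), with no filter on dim probes (adjusted p = 0.058) and with the methods' t-test after Benjamini-Hochberg adjustment (adjusted p = 0.11).

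Of the other 6 enzymes of this stretch none was called on its brightest probe, and on that probe Sqle alone had an adjusted p no higher than 0.05. Sqle, squalene epoxidase, read 13.58, 13.40 and 13.42 and then 13.02, 13.12 and 13 (-0.42, adjusted p = 0.00856 by limma), and a second probe gave -0.41 (adjusted p = 0.0213). Msmo1, the methylsterol oxidase, had -0.45 (adjusted p = 0.0541), Nsdhl, a dehydrogenase of the same demethylation, -0.43 (adjusted p = 0.071) and Lss, lanosterol synthase, -0.42 (adjusted p = 0.145). Of the 4 tested Nsdhl probes, all lay below 0, between -0.62 and -0.40, and probe 2958207 passed (-0.62, adjusted p = 0.031). Ebp, the sterol isomerase, had -0.27 with no overlap between days (adjusted p = 0.0942), and Tm7sf2, a sterol reductase, -0.13 with overlap. Lss read 11.53, 10.94 and 11 at D3 and 10.69, 10.78 and 10.74 at D4, without overlap, and Tm7sf2 read 8.01, 7.67 and 8.03 and then 7.96, 7.43 and 7.92. A second Lss probe, 1228641, did not show the difference, with -0.02 (adjusted p = 0.946 by limma) in wild type and 0.02 (adjusted p = 0.964) in the cKO. A second Fdps probe had -0.51 (adjusted p = 0.416) and -0.20 (adjusted p = 0.81).

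In the cKO cultures no sterol enzyme passed the threshold between D3 and D4. A difference of the same sign as in wild type was found for 14 of 15. The exception was Sc5d (0.64 in wild type and -0.08 in the cKO). Sqle had -0.32 on its brightest probe (adjusted p = 0.0601 by limma), with every D4 array below every D3 array. Its second probe had -0.45 (adjusted p = 0.0366), short of the fold minimum. The other probes of Lss, Fdps and Nsdhl had adjusted p from 0.0718 to 0.964 in the cKO. Of the 31 members, 1 was called higher (Srebf1) and 0 lower, while 4.14% of all genes were called, 2.53% higher and 1.61% lower. Unadjusted limma p-values were under 0.05 for 9 members in the lower direction, 8 of them sterol enzymes, and for 12.2% of all genes, and the methods' t-test on the same values with the same fold minimum counted 0 lower, adjusted or not. All 15 sterol enzymes lay below 0, between -0.69 and -0.08, as did 51.3% of all genes. In 8 of the 15 all D4 arrays lay below all D3 arrays, as in 14.8% of all genes.

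Idi1 had the most negative change of the sterol enzymes in the cKO. It read 7.87, 8.58 and 8.87 at D3 and 7.90, 7.49 and 7.88 at D4, so that the days overlapped at D3 replicate 1 (-0.69, standard error 0.24, adjusted p = 0.113 by limma), and without that array it passed (-0.97, adjusted p = 0.0461). Cyp51 read 12.57, 12.69 and 12.88 and then 12.43, 12.28 and 12.40, and Hsd17b7 12.09, 12.35 and 12.49 and then 11.93, 12 and 11.89. Both were lower at D4 on every array, with log2 fold changes of -0.34 (adjusted p = 0.138) and -0.37 (adjusted p = 0.107). Dhcr7, which had fallen in wild type, read 9.77, 9.74 and 9.92 at D3 and 9.50, 9.63 and 9.90 at D4 in the cKO, overlapping, at -0.13 (adjusted p = 0.639).

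Among the mevalonate genes of the cKO, Mvk read 8.21, 8.37 and 9 at D3 and 8.05, 8.18 and 8.21 at D4 (-0.38, adjusted p = 0.248 by limma), and Mvd 10.12, 10.41 and 10.83 and then 10.02, 10.01 and 10.17 (-0.38, adjusted p = 0.272). D3 replicate 3 was the highest array in both, and the days met or overlapped. Pmvk read 9.66, 9.69 and 10.43 and then 9.50, 9.39 and 9.44 (-0.48, adjusted p = 0.191), and Fdps 14.29, 14.41 and 14.56 and then 14.06, 14.04 and 14.05 (-0.37, adjusted p = 0.0831). In these 2 genes every D4 array lay below every D3 array, without passing. Lss read 10.93, 11.34 and 11.45 and then 10.87, 11.06 and 10.59, and Tm7sf2 7.83, 8.04 and 8.48 and then 7.55, 7.45 and 7.99, both with overlap (-0.40, adjusted p = 0.224, and -0.45, adjusted p = 0.228).

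**Figure D2:**
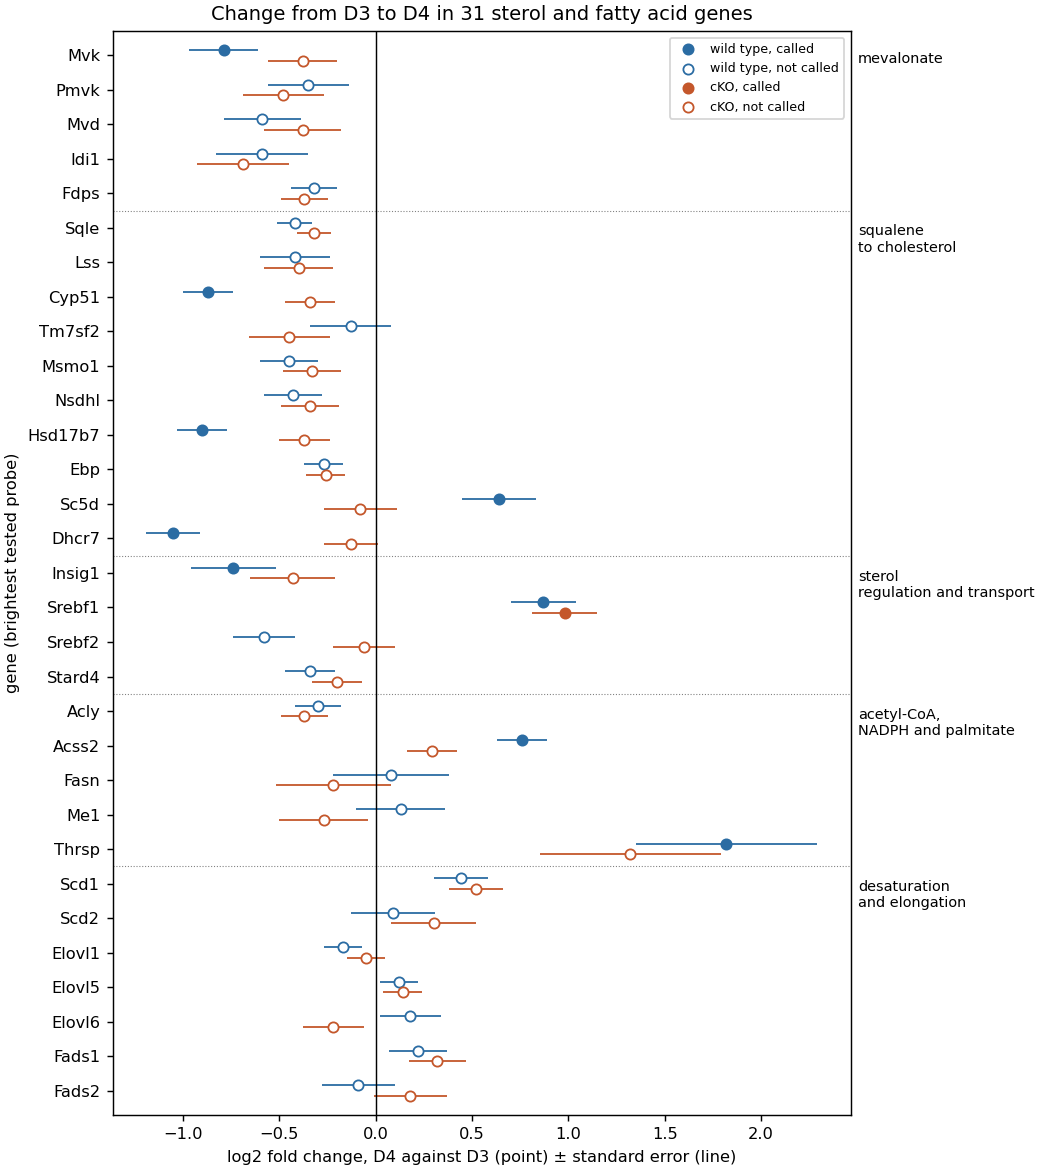
Log2 fold change from D3 to D4 of the 31 tested members, by step, in wild type (blue) and Blimp-1 cKO (orange) cultures, with lines of 1 standard error of the limma fit (3 arrays a group). Filled points were called, as 9 were in wild type and 1 in the cKO, and the sterol enzymes lie left of 0 except Sc5d in wild type.

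Whether the change from D3 to D4 differed between the genotypes was tested as an interaction, and 0 of 31 members and 0 of 10724 genes passed (0% called). Unadjusted limma p-values under 0.05 were found for 4 members in 1 direction and 2 in the other, beside 379 and 414 of all genes. Dhcr7 had the largest interaction among the members, 0.92 (standard error 0.20, adjusted p = 0.347), and Sc5d the most negative, -0.72 (standard error 0.27, adjusted p = 0.589). Cyp51 and Hsd17b7 both had 0.53 (adjusted p = 0.562). The change from D3 to D4 was smaller in size in the cKO than in wild type for 11 of 15 sterol enzymes. This also held for 3 of 4 genes of regulation and transport and 3 of 12 fatty acid genes. Such sizes were not counted over all genes, of which 12% were called between the days in wild type and 4.14% in the cKO. The median interaction of the sterol enzymes was 0.10, beside 0.00 over all genes.

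Of the 4 genes of regulation and transport, 1 rose (Srebf1) and 1 fell (Insig1) from D3 to D4 in wild type. Of all genes 7.09% were called higher and 4.89% lower there. Srebf1 alone passed in the cKO, where 2.53% of all genes were called higher. Srebf1 was higher at D4 in both genotypes. In wild type it read 8.97, 8.95 and 8.91 at D3 and 9.76, 10.02 and 9.65 at D4 (log2 fold change 0.87, standard error 0.17, adjusted p = 0.00595 by limma). In the cKO it read 8.43, 8.85 and 8.78 and then 9.42, 9.54 and 10.04 (0.98, standard error 0.17, adjusted p = 0.0133, 1.97-fold). Neither pair of groups overlapped. The cKO call was lost when only the cKO arrays were fitted (adjusted p = 0.0715) and with the methods' t-test after Benjamini-Hochberg adjustment (adjusted p = 0.189). The annotation used does not say which Srebf1 transcripts the probe reads.

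Srebf2 was lower at D4 in wild type, at 11.37, 11.35 and 11.36 on D3 and 10.73, 11.04 and 10.58 on D4 (-0.58, standard error 0.16, adjusted p = 0.0309 by limma). This lay just under the fold of 1.5, and without D4 wild type replicate 2 it passed both limits (-0.71, adjusted p = 0.0212). A second Srebf2 probe gave -0.41 (adjusted p = 0.102). In the cKO Srebf2 read 11.21, 10.90 and 11.17 and then 10.86, 10.86 and 11.38, overlapping, with -0.06 (adjusted p = 0.864).

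Insig1, which retains SREBPs in the endoplasmic reticulum and is itself a target of them, read 10.93, 10.42 and 10.47 at D3 and 9.59, 10.14 and 9.88 at D4 in wild type. It fell by 0.74 on the log2 scale (standard error 0.22, adjusted p = 0.0342 by limma) without overlap. The call was lost without D3 wild type replicate 1 or 3 or D4 wild type replicate 1 or 3, at adjusted p from 0.0629 to 0.121. It was also lost with the authors' processed values (adjusted p = 0.0561), with no filter on dim probes (adjusted p = 0.0581), with the replicate block within genotype (adjusted p = 0.0547) and with the methods' t-test after Benjamini-Hochberg adjustment (adjusted p = 0.13). The other 2 tested Insig1 probes gave -0.55 (adjusted p = 0.102) and -0.28 (adjusted p = 0.609) in wild type, and -0.33 (adjusted p = 0.392) and 0.70 (adjusted p = 0.239) in the cKO, where the second had the opposite sign. In the cKO Insig1 read 10.21, 10.13 and 10.89 and then between 9.86 and 10.10, with -0.43 (adjusted p = 0.266). Stard4, a carrier of cholesterol between membranes, read 10.95, 10.83 and 10.92 and then 10.55, 10.49 and 10.65 in wild type, apart but not called (-0.34, adjusted p = 0.0846). In the cKO it read 10.98, 10.88 and 11.18 and then 10.93, 10.56 and 10.94, overlapping (-0.20, adjusted p = 0.363).

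In the fatty acid branch, 2 of 12 members rose from D3 to D4 in wild type, beside 7.09% of all genes called higher. None fell by the call, beside 4.89% of all genes, although Acly had an unadjusted limma p under 0.05 in the lower direction. Acss2, the enzyme that makes acetyl-CoA from acetate, read 9.53, 9.54 and 9.35 at D3 and 10.22, 10.34 and 10.16 at D4 (log2 fold change 0.76, standard error 0.13, adjusted p = 0.00305 by limma), and its call held in every alternative. Thrsp, the Spot14 protein that promotes lipogenesis in liver, fat and mammary gland, read 6.75, 8.29 and 8.20 and then 9.02, 9.80 and 9.87. It rose 3.53-fold (1.82, standard error 0.47, adjusted p = 0.0213) without overlap. Its call was lost without D3 wild type replicate 1 or D4 wild type replicate 2 or 3, at adjusted p from 0.0623 to 0.0707, and with the methods' t-test after Benjamini-Hochberg adjustment (adjusted p = 0.133). The log2 fold change of Thrsp was 1.32 without D3 wild type replicate 1, and 1.22 without background correction, where the call held.

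In the cKO, Acss2 read 8.97, 9.43 and 9.45 at D3 and 9.59, 9.61 and 9.54 at D4, higher on every D4 array by a small amount (0.29, adjusted p = 0.207 by limma). Thrsp read 7.51, 8.20 and 6.60 and then 8.39, 9.31 and 8.58, also without overlap (1.32, adjusted p = 0.122). In the cKO, D3 and D4 arrays that share a replicate number deviated together, and with that pairing as a block Thrsp passed (adjusted p = 0.024), so that 2 members rose rather than 1. Scd1, the main stearoyl-CoA desaturase, read 13.89, 14.05 and 14.34 and then 14.47, 14.58 and 14.79 (0.52, adjusted p = 0.0541), and passed without D3 cKO replicate 3 (0.65, adjusted p = 0.0489). In wild type it read 14.07, 14.27 and 14.30 and then 14.50, 14.67 and 14.79, short of the fold of 1.5 (0.44, adjusted p = 0.0496).

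Acly, which makes acetyl-CoA from citrate, had a lower signal on every D4 array than on every D3 array in both genotypes. It read 13.95, 13.83 and 13.89 and then 13.55, 13.63 and 13.58 in wild type (-0.30, adjusted p = 0.116 by limma), and 13.67, 14.10 and 13.91 and then 13.66, 13.57 and 13.35 in the cKO (-0.37, adjusted p = 0.103). Neither difference passed. Fasn, fatty acid synthase, was close to background, with its probe detected at D3 on 1 array of each genotype and at D4 on 2 wild type and 0 cKO arrays, and its differences are those of a signal near background. Me1, a malic enzyme that yields NADPH, overlapped in all comparisons.

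Of the 7 desaturation and elongation genes none was called in any comparison. Scd1, given above, had every D4 array above every D3 array in both genotypes, and in the cKO it also passed with the authors' processed values (0.70, adjusted p = 0.0345 by limma). The median of the 7 from D3 to D4 was 0.12 in wild type and 0.18 in the cKO. Fads1, a desaturase of polyunsaturated chains, read 14.18, 13.81 and 13.88 at D3 and 14.22, 14.13 and 14.18 at D4 in wild type (0.22), and 13.66, 13.96 and 14.30 and then 14.27, 14.35 and 14.26 in the cKO (0.32). Fads2, its partner desaturase, read 11.36, 10.76 and 10.76 and then 11.02, 10.90 and 10.70 in wild type (-0.09), and 10.72, 10.87 and 11.24 and then 10.91, 11.23 and 11.23 in the cKO (0.18). Both overlapped between the days in both genotypes, and in both genes D3 wild type replicate 1 and D3 cKO replicate 3 were the highest D3 arrays of their genotype.

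Scd2, a second stearoyl-CoA desaturase, read 10.93, 10.68 and 10.64 and then 10.42, 11.31 and 10.79 in wild type (0.09), and 10.14, 10.47 and 10.87 and then 10.71, 10.75 and 10.91 in the cKO (0.30). Elovl5, an elongase of polyunsaturated chains, read 13.29, 13.31 and 13.16 and then 13.42, 13.41 and 13.28 in wild type (0.12), and 12.99, 13.26 and 13.11 and then 13.15, 13.29 and 13.33 in the cKO (0.14). Neither was separated by day in either genotype. Elovl6, which elongates palmitate, read 11.70, 11.55 and 11.53 and then 11.85, 11.71 and 11.75 in wild type, apart by day but not called (0.18, adjusted p = 0.48 by limma), and had -0.22 in the cKO (adjusted p = 0.451). Elovl1, an elongase of very long chains, had -0.17 in wild type and -0.05 in the cKO.

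**Figure D3:**
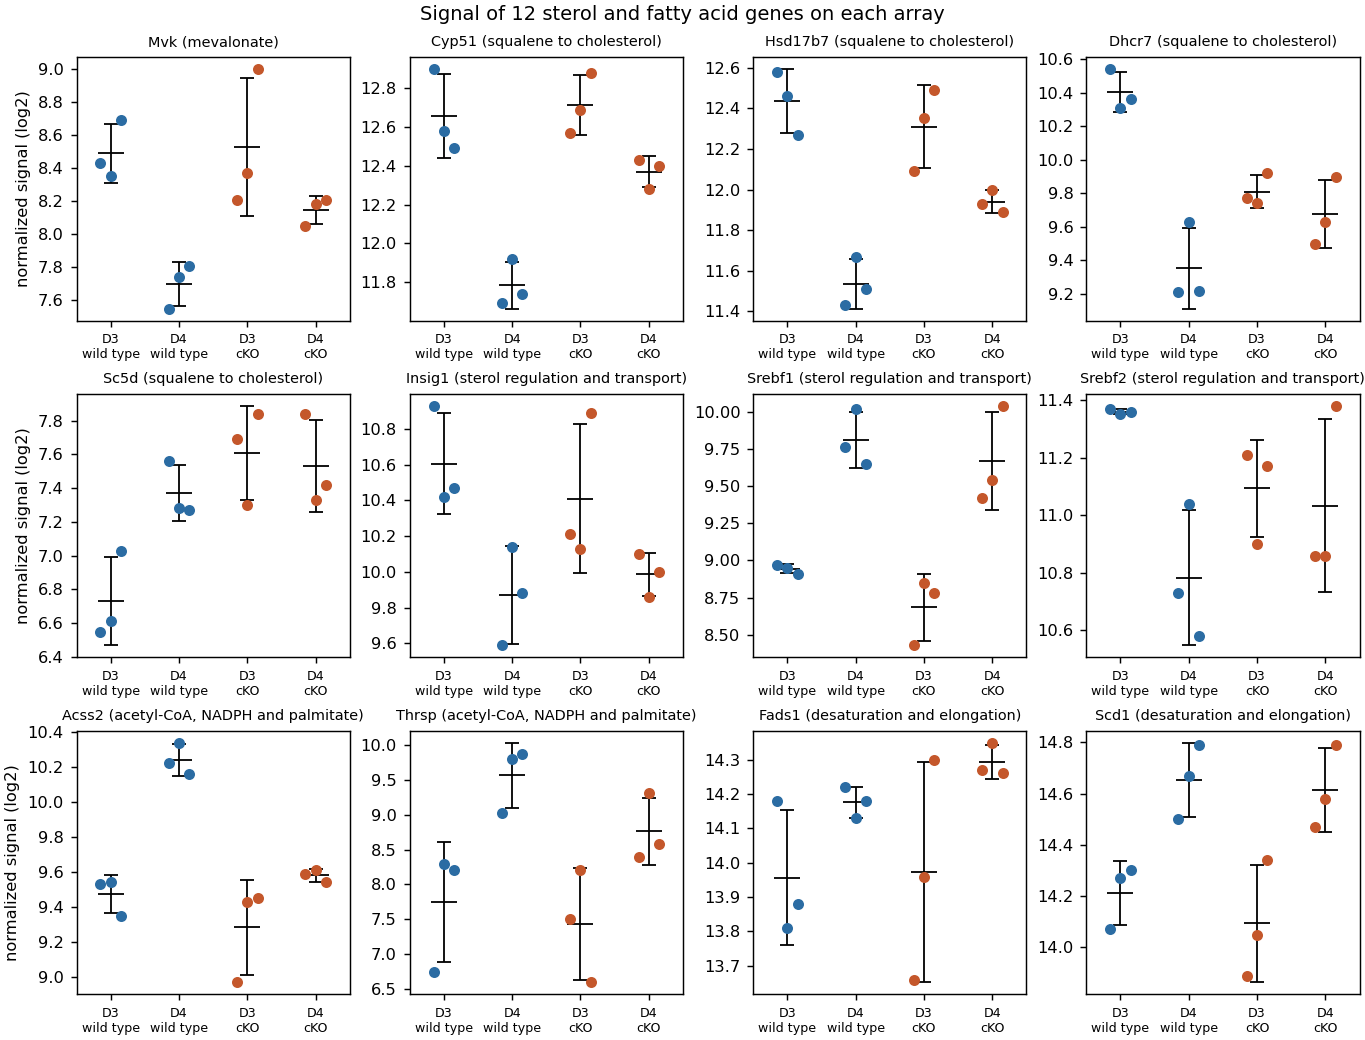
Normalized log2 signal of 12 members on each array, in wild type (blue) and Blimp-1 cKO (orange) cultures at D3 and D4, with bars for group means and lines for 1 SD (n = 3); each panel has its own axis, which does not start at 0. Mvk, Cyp51, Hsd17b7 and Dhcr7 show the D4 wild type arrays below the D3 ones, and Srebf1, Acss2 and Thrsp show them above.

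At D4, 1 of the 31 members passed between Blimp-1 cKO and wild type cultures (4.23% of all genes did). Acss2 was lower in the cKO, and no member was called higher, while 1.45% of all genes were called lower and 2.79% higher. The median difference was 0.13 over the sterol branch and -0.09 over the fatty acid branch, beside -0.02 over all genes. The fatty acid median was -0.18 without D4 wild type replicate 1, and the sterol median was 0.08 without D4 cKO replicate 1. In 4 of 15 sterol enzymes all cKO arrays lay above all wild type arrays (Mvk, Cyp51, Nsdhl and Hsd17b7), as in 11.6% of all genes, and in 0 of 15 below, where the share of all genes was 12.9%. Within BeadChips, which are the replicate numbers at D4, the sterol median was 0.22, 0.05 and 0.15 and the fatty acid median -0.10, -0.10 and -0.10.

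Acss2 at D4 read 9.59, 9.61 and 9.54 in the cKO and 10.22, 10.34 and 10.16 in wild type. The groups stood apart, and the difference was -0.66 on the log2 scale (standard error 0.13, adjusted p = 0.015 by limma), or 1.58-fold lower. On the 3 BeadChips it was -0.63, -0.73 and -0.62. The call was lost without D4 wild type replicate 2 (adjusted p = 0.0602), without background correction, where the difference was -0.56, and with the replicate block on the D4 arrays alone (adjusted p = 0.0866). The D4 wild type arrays enter both this comparison and the change from D3 to D4 in wild type. At D3 the Acss2 arrays of the genotypes overlapped (-0.19, adjusted p = 0.629). All 5 tested genes of acetyl-CoA, NADPH and palmitate supply lay below 0 at D4, with a median of -0.31, but Acss2 was the only one called and Fasn was near background.

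Cyp51 at D4 read 12.43, 12.28 and 12.40 in the cKO and 11.69, 11.92 and 11.74 in wild type. The difference of 0.58 had an adjusted p of 0.0261 by limma and stood just under the fold of 1.5. It passed both limits on the authors' processed values (0.65, adjusted p = 0.0278) and without D4 wild type replicate 2 (0.65, adjusted p = 0.0394). Within BeadChips it was 0.74, 0.36 and 0.66. Mvk (0.45, adjusted p = 0.206), Hsd17b7 (0.40, adjusted p = 0.105) and Dhcr7 (0.32, adjusted p = 0.246) did not pass. Of the fatty acid genes, Elovl6 at D4 read 11.02, 11.24 and 11.54 in the cKO and 11.85, 11.71 and 11.75 in wild type, apart but not called (-0.50, adjusted p = 0.104).

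**Figure D4:**
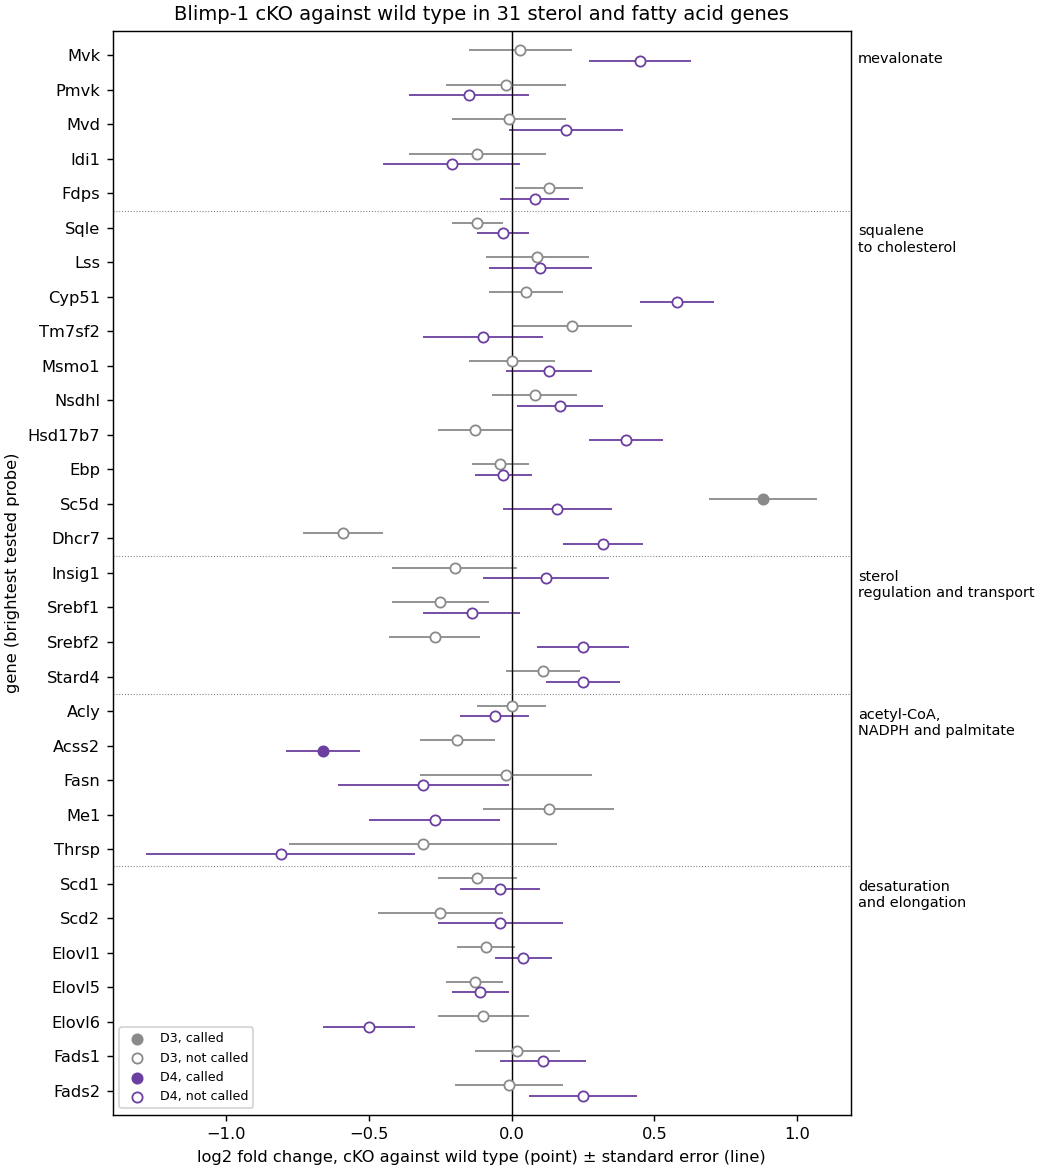
Log2 fold change of Blimp-1 cKO against wild type cultures for the 31 tested members, by step, at D3 (grey) and D4 (purple), with lines of 1 standard error of the limma fit (3 arrays a group). Filled points were called, which were Sc5d at D3 (0.88) and Acss2 at D4 (-0.66).

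At D3, Sc5d was the member that differed. It read 7.69, 7.30 and 7.84 in the cKO and 6.55, 6.61 and 7.03 in wild type, with no overlap, and was 1.84-fold higher (0.88, standard error 0.19, adjusted p = 0.0298 by limma). At this day 2.49% of all genes were called, 1.94% higher and 0.55% lower, and 0 members were lower by the call, with 1 (Dhcr7) at an unadjusted p under 0.05. The Sc5d call was lost without D3 wild type replicate 1 or 2 or D3 cKO replicate 1 or 3 (adjusted p from 0.101 to 0.129), without background correction, where the difference was 0.39, when only the D3 arrays were fitted (adjusted p = 0.0787), and with the methods' t-test after Benjamini-Hochberg adjustment (adjusted p = 0.296). At D4 Sc5d read 7.84, 7.33 and 7.42 in the cKO and 7.56, 7.28 and 7.27 in wild type, overlapping (0.16, adjusted p = 0.72). The cKO arrays of both days and the D4 wild type arrays thus spanned 7.27 to 7.84, and the D3 wild type arrays, which enter both called Sc5d comparisons, lay below them.

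Dhcr7 at D3 read 9.77, 9.74 and 9.92 in the cKO and 10.54, 10.31 and 10.36 in wild type. The groups did not overlap, and the difference of -0.59 missed the threshold (standard error 0.14, adjusted p = 0.0597 by limma) but passed with a stricter filter on dim probes (adjusted p = 0.0408) and with the trend and robust options (adjusted p = 0.0225). The D3 wild type arrays of Dhcr7 also enter its wild type change from D3 to D4 and its interaction. Its other arrays all lay between 9.21 and 9.92. Srebf1, Srebf2 and Sqle also had all D3 cKO arrays below all D3 wild type arrays, at differences of -0.25, -0.27 and -0.12 that did not pass, so that this held for 4 of 31 members beside 10.3% of all genes. All D3 cKO arrays lay above wild type for 1 of 31, beside 9.51%. The median over the sterol branch was 0.15 without D3 wild type replicate 1 and 0.15 without D3 cKO replicate 1, was -0.12 without D3 cKO replicate 3, and lay within 0.01 of 0 with all arrays.

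Genes around the pathway were read from 2 further lists. Of 26 other sterol genes, 15 were tested, of which 2 were called higher and 3 lower from D3 to D4 in wild type (33.3% of the list, beside 12% of all genes), and 2 higher in the cKO (13.3%, beside 4.14%). Both wild type genes called higher had probes detected on 0 of the D3 arrays and passed the detection rule through D4. The 33.3% counts both of them and the 13.3% counts Abcg1, so no excess over all genes is read from these shares. Their folds are bounds, the D4 mean against the higher of each D3 array's lowest detected signal and the probe's own. Abcg1, a sterol exporter and LXR target, was detected on 3 of 3 D4 arrays of each genotype, at least 2.15-fold higher than at D3 in wild type (adjusted p = 0.00052 by limma) and at least 1.74-fold in the cKO (adjusted p = 0.00826). Mylip, an LXR-induced ubiquitin ligase, was detected on 1 of 3 D4 wild type arrays, and its bound of 1.13-fold (adjusted p = 0.0418) is that of a signal near background. Lbr, a lamin receptor with sterol reductase activity (-0.59), Tmem97, a sterol-responsive membrane protein (-0.74), and Scarb1, the HDL receptor (-0.63), fell in wild type. Npc2, which moves cholesterol out of lysosomes, rose in the cKO (0.70, adjusted p = 0.0365).

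Of 43 other fatty acid and lipid genes, 34 were tested, of which 3 were called higher and 1 lower in wild type from D3 to D4, or 11.8% of the list, close to the 12% of all genes. Vldlr, a lipoprotein receptor, rose (1.28, adjusted p = 0.0115 by limma), as did Plin3, a lipid droplet coat protein (0.63, adjusted p = 0.00412). The probe of Acacb, the mitochondrial acetyl-CoA carboxylase, was detected on 0 D3 arrays and on 2 of 3 D4 arrays of each genotype, and its bounds of 1.08-fold in wild type (adjusted p = 0.00367) and 1.15-fold in the cKO (adjusted p = 0.0338) are near background. Acacb thus passed the detection rule through D4 and counts in the 11.8%, so nothing about the list is read from that share. Hacd2, a dehydratase of fatty acid elongation, fell (-0.71, adjusted p = 0.0494). No gene of either list was called between the genotypes at D3 or D4, where unadjusted limma p-values under 0.05 numbered 0 and 2 of the sterol list and 3 and 6 of the lipid list. For the lipid list these were 8.82% and 17.6%, below the 12.5% and 19.9% of all genes, and for the sterol list 0% and 13.3%.

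The arrays gave a median signal of 194 to 271, with 18087 to 18905 of 45281 probes detected, and their number limits the precision. One probe of Prdm1 was detected on 0 wild type arrays, 1 D3 cKO array and 3 D4 cKO arrays, and a second on 0 arrays. Where these probes lie relative to the deletion is not known here, so they do not check the labels. Luminal keratin genes were detected on all arrays, and 11 of 13 luminal markers were tested. Of 10 adipocyte markers, Lep alone was tested, and Adipoq, Fabp4, Plin1, Cidec, Retn, Pck1, Lipe and Car3 were detected on at most 2 arrays. Of the myeloid and lymphocyte markers 2 of 10 were tested, and Ptprc was detected on 0 arrays.

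Other marker groups moved with genotype or day. The summed basal marker signal (10 of 12 genes tested, log2) was 16.22 to 16.27 in D3 wild type and 16.33 to 16.68 in D3 cKO, and 16.19 to 16.34 and 16.49 to 16.69 at D4. Such a sum follows its brightest genes, and 9 of the 10 basal markers lay above 0 in the cKO at each day, with a median difference of 0.76 at D3 and 0.68 at D4. Called between genotypes were Cdh3 at D3 (0.91, adjusted p = 0.0359 by limma) and Krt17 at D4 (0.62, adjusted p = 0.0304). From D3 to D4 in wild type Trp63 (0.76) and Igfbp5 (0.70) rose and Krt17 fell (-0.67). The fibroblast sum (10 of 10 genes) was 12.41 to 12.74 and 12.97 to 13.52 at D3, and 12.45 to 13.63 and 13.50 to 13.77 at D4, in the same order, and Pdgfra rose in wild type (1.17, adjusted p = 0.0438). The sum of milk and alveolar genes (10 of 12) was 16.06 to 16.32 in D3 and 16.38 to 16.46 in D4 wild type, and 16.04 to 16.41 and 16.18 to 16.33 in the cKO. Of these genes Muc15 (2.63, adjusted p = 0.00468), Xdh (0.72, adjusted p = 0.0151) and Btn1a1 (0.67, adjusted p = 0.0138) rose in wild type. They did not move together, as 6 of the 10 lay above 0 and 4 below in wild type, the lowest at -1.1. Unadjusted limma p-values were under 0.05 for 5 in the higher and 3 in the lower direction. Muc15 was lower in the cKO at D4 (-2.09, adjusted p = 0.0341). The interferon sum (7 of 9, of which 6 were called higher in the cKO at each day) was 12.29 to 12.47 in D3 and 14.10 to 14.14 in D4 wild type, and 15.08 to 16.08 and 16.02 to 16.11 in the cKO. The myeloid and lymphocyte sum (2 of 10) was 11.09 to 11.39 in D3 and 10.99 to 11.60 in D4 wild type, and 10.52 to 11.27 and 10.12 to 10.24 in the cKO. Of its genes Lyz2, the macrophage lysozyme, was lower in the cKO at D4 (-1.17, adjusted p = 0.00734 by limma) and fell from D3 to D4 in the cKO (-0.80, adjusted p = 0.0463). Csf1r, the other tested gene, did not follow it, with 0.22 between the genotypes at D4 and -0.01 from D3 to D4 in the cKO. The luminal sum (11 of 13) lay between 16.48 and 16.63 in all 4 groups, and from D3 to D4 in wild type Elf5 (0.80, adjusted p = 0.00486) and Kit (0.84, adjusted p = 0.0429) rose and Foxa1 fell (-0.99, adjusted p = 0.0327), with no luminal marker called in the other comparisons. The part of these groups in the changes of sterol and fatty acid genes was not tested.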

How the data were processed

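Cultures of both genotypes were profiled at D3 and D4 on 12 arrays. Scans were summarised per probe by the authors in GenomeStudio, and the deposited intensity values used here were neither normalized nor background-subtracted. The deposited detection p-values set a probe against its array's negative control beads. A linear table of intensity values that the authors had rank-invariant normalized and background-subtracted served as an alternative. All deposited value columns were mapped to samples.

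Background correction by the detection p-values, quantile normalization and log2 transformation used neqc (limma 3.58.1, R 4.3.3, offset 16). Testing covered the 19972 of 45281 probes whose detection p was under 0.05 on 3 arrays or more. In the annotation, 34885 probes carry 1 symbol, 18 carry several and 10378 none, and members were matched by current or older symbols. The brightest tested probe stands for a gene. One limma model with 4 group means was fitted, with Benjamini-Hochberg adjustment per comparison over all tested probes. Calls required a fold of 1.5 or more and an adjusted p no higher than 0.05, and for the interaction the adjusted p alone. A single gene in 3 against 3 arrays cannot reach an exact permutation p below 0.1. The fit was first tested on simulated data.

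The members and lists were chosen with earlier results of these data known. The rule for values on each array took called members, the 2 largest changes of each step and comparison, and Srebf1, Srebf2 and Insig1. Sqle was added after its values were seen. Some genes of the wider lists are not reported here.

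Replicate numbers at D4 are BeadChips, because the study's probe table, labelled by BeadChip, equals the deposited processed values for 598 of 598 probes on each D4 array within 0.1%, or 0.001 for values under 1. BeadChips of the D3 arrays are unknown here. Same-numbered D3 and D4 arrays had residual correlations of 0.31, 0.35 and 0.36 in the cKO and of 0.18, 0.13 and 0.08 in wild type. Between genotypes the correlations were 0.14, 0.09 and 0.10 at D3, and -0.05, 0.03 and -0.08 at D4. The same-numbered array was the best match in each case except between genotypes at D4. The main fit had no block, and the replicate block within genotype paired the D3 and D4 arrays of both genotypes.

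The processing was varied by taking the authors' processed values (floor of 10), omitting background correction, dropping or tightening the detection filter (p under 0.01 throughout a group), blocking on replicates, using trend and robust options, fitting only the arrays compared, accepting any tested probe, dropping the fold minimum, using the methods' t-test, and leaving out each array.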

Additional observations from a re-analysis of the deposited data

How the results depend on the processing

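The sterol median of D4 against D3 stayed between -0.52 and -0.30 in wild type and between -0.44 and -0.26 in the cKO under all alternatives run, and no called result changed direction. Calls near the limits moved. Members higher at D4 in the cKO went from 0 to 1 (Cyp51) with the authors' processed values and with no fold minimum. Members lower at D4 in the cKO went from 1 to 0 without background correction and with the replicate block on the D4 arrays alone. At D3, members higher in the cKO went from 1 to 0 without background correction, with only the D3 arrays and with the methods' t-test after Benjamini-Hochberg, and members lower from 0 to 1 (Dhcr7) with the stricter filter, the trend and robust options and the unadjusted t-test. From D3 to D4 in the cKO, 2 members were higher with the authors' values (Srebf1 and Scd1), 2 with the replicate block within genotype (Srebf1 and Thrsp), and 0 with only the cKO arrays and with the t-test after Benjamini-Hochberg. In wild type, that t-test left 2 of the 4 higher members. With the replicate block within genotype, Mvd was gained (adjusted p = 0.0183) and Insig1 lost (adjusted p = 0.0547) in wild type, so that 5 members were lower as before, and the replicate block across all arrays changed no call.

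Leaving out each array in turn gave 0 to 1 members higher and 0 lower at D3, 0 to 1 higher and 0 to 1 lower at D4, 2 to 4 higher and 3 to 6 lower from D3 to D4 in wild type, and 1 to 2 higher and 0 to 1 lower in the cKO. The sterol median at D3 ranged from -0.12 to 0.15. Fasn and the probes detected on few arrays are limited by their signal over background, and Acat2, Hmgcs1 and Fdft1 were not analysed here.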
